A study of Homo sapiens with 6 samples.

Results

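The RAB small GTPases are the largest branch of the RAS superfamily and the switches that give each transport vesicle its address. The members described here are the rows of the deposited expression table whose gene name is RAB, a number and at most a letter and a further digit, which gave 65 rows of the 51537 in the table. These rows carry 64 distinct symbols, because RAB5C is listed under 2 gene identifiers, and 62 rows are protein coding and 3 are pseudogenes (RAB1C, RAB42P1 and RAB43P1) by GENCODE 29. RAB7L1 is the older name of RAB29 and is kept here as the table has it.

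The study compared 3 control libraries of H3122 cells with 3 libraries of a crizotinib-resistant derivative. H3122 cells derive from a human lung adenocarcinoma driven by the EML4-ALK kinase fusion, and crizotinib blocks ALK and MET. The protocols in the labels say that the resistant cells were selected by raising crizotinib in steps from 0.1 to 10 µM, with each increase made when cells had stopped dying; the labels name no agent for the control libraries and do not say whether the resistant cells were in drug at harvest. All libraries were made from TRIzol RNA by bead capture of mRNA and a KAPA stranded kit. The labels do not say whether the resistant cells are a clone or a pool, or whether a group's libraries are separate cultures. The p-values therefore cover the spread among these libraries alone, and that spread may be technical. Abundance is in TPM, a transcript abundance corrected for gene length, so levels of different genes can be set side by side.

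A RAB protein is held inactive by GDP in the cytosol and is delivered to a membrane after prenylation. An exchange factor there loads it with GTP, the active form recruits effectors such as tethers and motor adaptors, and a GTPase-activating protein ends the cycle. In lung epithelium the family is known for carrying surfactant and mucin to the surface and for returning receptor kinases from endosomes.

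The libraries held an estimated 29856927 to 36695580 reads, rebuilt from TPM and annotated exon length, and correlated at 0.986 to 0.989 within a group and 0.957 to 0.960 between groups (Pearson's r over log2 values). Epithelial markers (keratins, EPCAM, CDH1 and others, 10 genes) summed to 17251 to 17797 TPM in control and 17908 to 19208 TPM in resistant libraries. NKX2-1, a defining factor of lung adenocarcinoma, was under 1 TPM in all 6 libraries, and NAPSA averaged 1.75 TPM in the control group and 1.22 in the resistant group. Of the markers of other cell types, 9 of 10 fibroblast, 7 of 10 leukocyte and 5 of 8 endothelial genes were under 1 TPM in all libraries. The summed fibroblast markers were 3.96 to 4.56 TPM in control and 13.7 to 15.1 TPM in resistant libraries, most of it COL1A1, and the part of this in any RAB result was not tested. The leukocyte sum was 6.11 to 6.75 and 6.501 to 7.999 TPM, and the endothelial sum 11.2 to 12.5 and 13.2 to 15.4 TPM.

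The members with the largest changes included close relatives. RAB6B rose from 2.52 to 8.78 TPM while its abundant relative RAB6A fell from 79.9 to 56.8 TPM. RAB38, RAB32 and RAB7L1, which form the branch that serves lysosome-related organelles, all rose. The coding stretch below shows how alike these relatives are at the box that every RAB uses to read its nucleotide. It is given for the RAB6 branch with the bases that differ from RAB6A in capitals (from GENCODE 29 transcripts, 5′ to 3′, 66 bases each):
RAB6A: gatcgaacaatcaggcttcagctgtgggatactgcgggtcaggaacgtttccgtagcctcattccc
RAB6B: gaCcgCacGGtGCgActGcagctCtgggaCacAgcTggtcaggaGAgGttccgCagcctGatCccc
RAB6C: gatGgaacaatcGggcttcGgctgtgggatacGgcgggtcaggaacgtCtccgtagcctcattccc
RAB41: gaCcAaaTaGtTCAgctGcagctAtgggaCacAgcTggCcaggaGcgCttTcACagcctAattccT

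In this stretch RAB6B differed from RAB6A at 18 bases, RAB41 at 20 and RAB6C at 5. Over the whole coding sequence, leaving out gaps, RAB6A shares 77.7% of 624 aligned bases with RAB6B, 96.3% of 624 with RAB6C and 69.6% of 608 with RAB41. Of the 50-base stretches in RAB6A transcripts, 14.2% occur letter for letter in RAB6C or RAB6D, so reads there cannot be assigned by sequence alone. By contrast, 0 of the 6182 stretches in RAB6B transcripts occur in transcripts of another annotated gene. Only the strand of the transcripts was searched, and the exon overlap of RAB6B with an antisense gene is given below. RAB6C itself was at most 0.138 TPM in any library.

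The same box of the other branch is given with the bases that differ from RAB38 in capitals:
RAB38: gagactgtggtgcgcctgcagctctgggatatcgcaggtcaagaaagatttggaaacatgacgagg
RAB32: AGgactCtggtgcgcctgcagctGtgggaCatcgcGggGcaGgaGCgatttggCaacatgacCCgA
RAB7L1: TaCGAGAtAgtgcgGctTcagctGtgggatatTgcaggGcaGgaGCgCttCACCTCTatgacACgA

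RAB32 differed from RAB38 at 14 of the 66 bases and RAB7L1 at 26. Identity over the aligned bases of the coding sequence, leaving out gaps, was 73.2% for RAB38 with RAB32, 64.4% for RAB38 with RAB7L1 and 64.4% for RAB32 with RAB7L1.

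Across the family, 52 of the 65 rows passed the filter of at least 1 TPM in at least 3 libraries and were tested. Of these, 28 were called at an adjusted p below 0.05 (limma, Benjamini-Hochberg over all 16077 genes tested), 15 higher and 13 lower in the resistant libraries. That is 53.8% of the tested members, against 48.6% of all genes tested, so the share called is near the background and is not a result about the family. By direction, 24.0% of all genes were called higher and 24.7% lower. The median log2 change of the tested members was -0.02, and that of all genes tested was -0.0044. The values of the 2 groups did not overlap for 31 members (59.6%), against 57.9% of all genes. Of the 52 tested members, 8 were called with a change of at least 0.5 on the log2(TPM + 1) scale, 5 higher and 3 lower. Among all genes tested, 22.3% passed that rule. The 3 lower ones were RAB20, RAB33A and RAB41, whose limits are given below. A mean ratio between 0.8 and its inverse was seen for 30 tested members. The libraries are bulk RNA, so fewer cells that transcribe a gene and less RNA per cell cannot be told apart.

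Of the 13 rows that were not tested, RAB39A, RAB42P1 and the second RAB5C row were listed at 0 in all libraries. A further 7 were above 0 but under 1 TPM throughout (RAB1C, RAB37, RAB39B, RAB3C, RAB44, RAB6C and RAB9B). The remaining 3 reached 1 TPM in 1 or 2 libraries (RAB30, RAB40A and RAB4B). RAB41 was the only tested member that passed the filter through 1 group alone, the control libraries, so it had to differ.

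**Figure D1:**
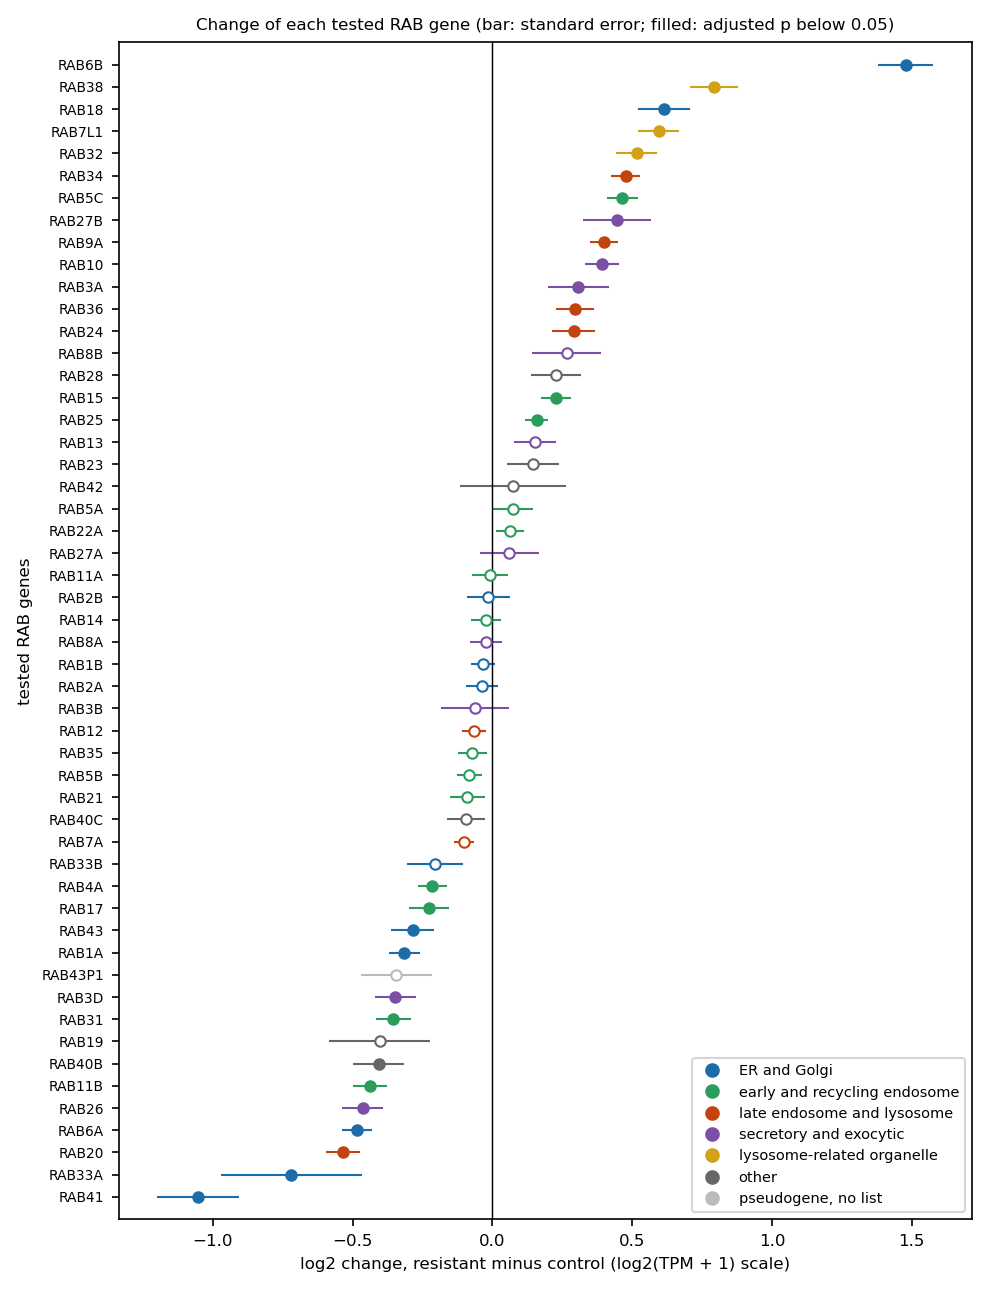
The log2 change (resistant minus control, log2(TPM + 1) scale, x axis) of the 52 tested RAB genes (y axis), with bars for the standard error, filled points for an adjusted p below 0.05 and colours for the role list. Filled points lie on both sides of 0, from RAB41 at -1.05 to RAB6B at 1.48, with the 3 lysosome-related RABs on the higher side.

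The 2 most abundant members were not called, and the next 3 were. RAB7A, which directs late endosomes to lysosomes, was at 401, 412 and 412 TPM in control and 373, 390 and 378 TPM in resistant libraries, and the groups did not overlap. Its log2 change was -0.10 ± 0.04 (SE), which missed the threshold (adjusted p = 0.0519). RAB1B, which acts in transport from the endoplasmic reticulum to the Golgi, was at 374, 391 and 409 TPM in control and 375, 384 and 387 TPM in resistant libraries, and these ranges overlapped (log2 change -0.03, adjusted p = 0.543). The next in order were RAB10 and RAB25, called higher, and RAB1A, called lower, with values given below in their groups. These 5 members together held 44.6% ± 0.341 (SD, n = 3) of the family's TPM in control and 44.3% ± 0.275 (SD, n = 3) in resistant libraries.

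The summed TPM of all members was 2925, 3137 and 3088 in control and 3085, 3133 and 3060 in resistant libraries. The ranges overlapped, and the difference of 42.7 TPM was smaller than the SD of the control libraries, 111 TPM. Without control replicate 1 the difference was -19.8 TPM. By level, 9 members averaged at least 100 TPM, of which 4 were called higher and 2 lower. A further 30 lay between 10 and 100 TPM, with 8 called higher and 7 lower, and 13 lay between 1 and 10 TPM, with 3 higher and 4 lower. All genes tested were not split by level, and 48.6% of them were called over all levels.

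RABs of the endoplasmic reticulum and Golgi held the largest rise, RAB6B, and the largest fall, RAB41. RAB41 passed the filter through the control libraries alone, so it had to differ and its fall is no support. It is included in the counts and the median that follow. Of 11 tested members of this group, 2 were higher (RAB6B and RAB18) and 5 lower (RAB6A, RAB1A, RAB33A, RAB41 and RAB43). Their median log2 change was -0.20 (63.6% called, against 48.6% of all genes tested). The number called lower was 2 without control replicate 3 and 3 without control replicate 2. Their summed TPM was 754 ± 35.5 in control and 703 ± 6.23 in resistant libraries (SD, n = 3 each).

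RAB6B is the RAB6 isoform best known from neurons and acts at the Golgi. It was at 2.18, 2.71 and 2.66 TPM in control and 9.21, 8.90 and 8.25 TPM in resistant libraries, every resistant library lying above every control library by a wide gap. The mean ratio was 3.49-fold, and the log2 change on the log2(TPM + 1) scale was 1.48 ± 0.10 (SE; adjusted p = 3.03e-05), on an estimated 119 to 520 reads per library. The gene lies at chr3:133824239-133895836 on the minus strand (GENCODE 29, GRCh38), and the 46 tested genes within 5 Mb had a median log2 change of -0.23. Here and below, genes within 5 Mb are the other tested genes that are protein coding, whereas medians of a chromosome cover all its tested genes. The exons of RAB6B overlap the antisense gene SRPRB over 6.34% of their length, and SRPRB averaged 39.0 and 36.5 TPM in the control and resistant groups with no call.

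RAB6A, the ubiquitous isoform of retrograde Golgi traffic, was at 74.9, 83.7 and 81.1 TPM in control and 58.6, 56.3 and 55.6 TPM in resistant libraries. The groups did not overlap, and the log2 change was -0.48 ± 0.05 (adjusted p = 0.000269). RAB41, a further RAB6 relative on the X chromosome, was at 1.88, 1.84 and 2.13 TPM in control and 0.475, 0.410 and 0.384 TPM in resistant libraries. Its log2 change was -1.05 ± 0.15 (adjusted p = 0.000863) on 5 to 30 estimated reads. That p-value is no support, as RAB41 passed the filter through the control libraries alone. The 31 tested genes within 5 Mb of it had a median of -0.89. The part of this regional shift in the RAB41 value was not tested.

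As a share of the summed TPM of the RAB6 branch, RAB6B made up 2.98% ± 0.189 in control and 13.3% ± 0.398 in resistant libraries (SD, n = 3 each). RAB6A went from 94.7% ± 0.259 to 86.0% ± 0.478, so it stayed the main transcript of the branch in all 6 libraries. The branch as a whole summed to 84.4 ± 4.83 and 66.1 ± 2.10 TPM in the control and resistant groups.

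**Figure D2:**
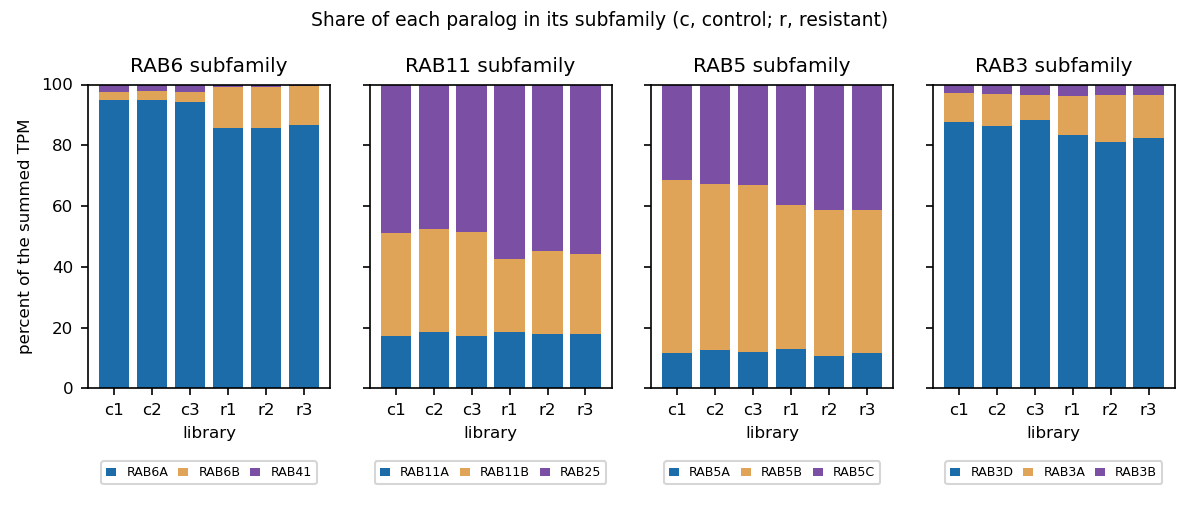
Share of each paralog in the summed TPM of its branch (y axis, percent) in each library (x axis, c for control, r for resistant), for the RAB6, RAB11, RAB5 and RAB3 branches; RAB6C and RAB3C, near 0, are not drawn. RAB6B takes 12.8% to 13.6% of the RAB6 branch in resistant libraries against 2.76% to 3.10% in control, and RAB25 and RAB5C also take larger shares.

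RAB18, which sits at contacts between the endoplasmic reticulum and lipid droplets, was at 25.2, 30.3 and 28.5 TPM in control and 48.5, 39.8 and 41.8 TPM in resistant libraries. The lowest resistant library was above the highest control library, and the log2 change was 0.61 ± 0.09 (adjusted p = 0.00122). The gene lies at chr10:27504174-27542237 (plus strand), and the 27 tested genes within 5 Mb had a median of 0.07. RAB1A, the partner of RAB1B in transport to the Golgi, was at 159, 179 and 173 TPM in control and 143, 134 and 132 TPM in resistant libraries, with no overlap (log2 change -0.31 ± 0.06, adjusted p = 0.00284). RAB1A exons overlap the antisense gene CEP68 over 22.9% of their length, and CEP68 had no call (7.63 and 7.29 TPM).

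RAB33A and RAB43 were called lower with less support. RAB33A, on the X chromosome, was at 1.40, 2.81 and 2.12 TPM in control and 1.52, 0.613 and 0.574 TPM in resistant libraries, so the groups overlapped. Its adjusted p was 0.0474, and it was 0.132 without control replicate 2, 0.106 without control replicate 3, 0.126 without resistant replicate 2 and 0.133 without resistant replicate 3. RAB43, a Golgi RAB, fell by 0.28 on the log2 scale (9.03 to 7.24 TPM, adjusted p = 0.0169), and the adjusted p was 0.0575 without control replicate 3. The 28 tested genes within 5 Mb of RAB33A had a median of -0.46, and the 54 within 5 Mb of RAB43 one of -0.21. The part of these regional shifts in either value was not tested. Of the 50-base stretches in RAB43, 80.0% occur in other annotated genes, mainly the readthrough ISY1-RAB43 and the pseudogene RAB43P1, so its value and that of RAB43P1 (13.2 and 10.1 TPM) are uncertain. RAB43P1 was not called (adjusted p = 0.0582), but was without control replicate 1 (adjusted p = 0.00589).

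All 3 members of the branch of lysosome-related organelles were called higher, where 24.0% of all genes tested were, and with 3 genes chosen by function with earlier results of these data known this count is a description. RAB38 and RAB32 bring cargo to melanosomes in pigment cells and are also known from the lamellar bodies of alveolar cells that store surfactant. RAB38 was at 27.6, 24.9 and 31.4 TPM in control and 49.7, 46.2 and 51.3 TPM in resistant libraries, with a wide gap between the groups. The mean ratio was 1.75-fold and the log2 change 0.79 ± 0.09 (adjusted p = 0.000251). The gene lies at chr11:88113242-88175467 on the minus strand.

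RAB7L1, whose product recruits the kinase LRRK2 to membranes, was at 22.9, 26.3 and 24.2 TPM in control and 40.6, 36.5 and 35.2 TPM in resistant libraries. The groups did not overlap, and the log2 change was 0.59 ± 0.07 (adjusted p = 0.000464). It lies at chr1:205767986-205775460 on the minus strand, and the 75 tested genes within 5 Mb had a median of 0.20. RAB32, which also anchors protein kinase A at mitochondria, was at 15.5, 16.0 and 16.5 TPM in control and 20.97, 24.5 and 24.7 TPM in resistant libraries, again with no overlap (log2 change 0.52 ± 0.07, adjusted p = 0.000982). RAB32 lies at chr6:146543693-146554965 on the plus strand, and the 38 tested genes within 5 Mb had a median of -0.15.

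Summed over the branch, TPM was 66.1, 67.2 and 72.1 in control and 111, 107 and 111 in resistant libraries. Within the branch the shares moved little, RAB38 holding 40.8% ± 3.35 in control and 44.6% ± 1.52 in resistant libraries (SD, n = 3 each). LRRK2 itself was listed at 0 in all 3 control libraries and was at most 0.0491 TPM in resistant libraries.

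**Figure D3:**
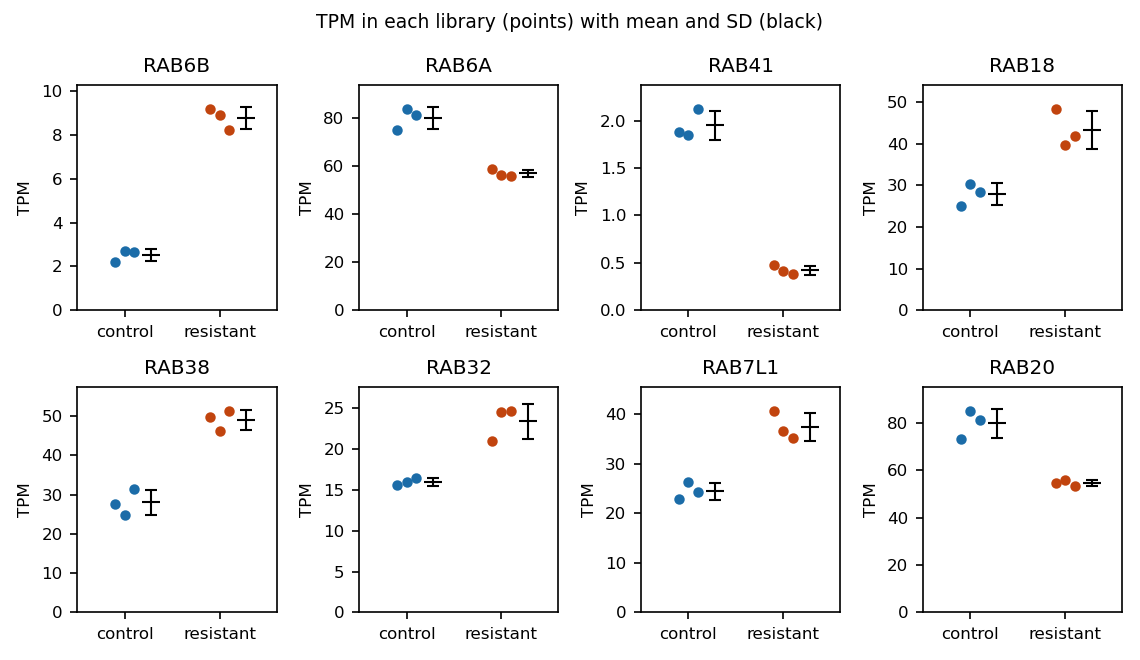
TPM (y axis, each starting at 0) of 8 RAB genes in each control (blue) and resistant (orange) library, with the group mean and SD (black, n = 3). In every panel the 2 groups are apart, with RAB6B, RAB18, RAB38, RAB32 and RAB7L1 higher and RAB6A, RAB41 and RAB20 lower in the resistant libraries.

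RABs of late endosomes and lysosomes were called higher in 4 of 7 tested members and lower in 1, with a median log2 change of 0.29. These counts are 57.1% and 14.3% of 7 genes, where 24.0% and 24.7% of all genes tested were called higher and lower. RAB34, which positions lysosomes and takes part in building cilia, was at 110, 117 and 110 TPM in control and 147, 162 and 161 TPM in resistant libraries. The groups did not overlap, and the log2 change was 0.48 ± 0.05 (adjusted p = 0.000259). The 61 tested genes within 5 Mb of RAB34 on chromosome 17 had a median of 0.29.

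RAB9A, which returns cargo from late endosomes to the trans-Golgi network, was at 36.0, 38.0 and 37.4 TPM in control and 48.7, 52.1 and 47.2 TPM in resistant libraries (log2 change 0.40 ± 0.05, adjusted p = 0.00061). It rose although it lies on the X chromosome, where tested genes had a median of -0.28, and the 33 tested genes within 5 Mb one of -0.26. RAB36, related to RAB34, rose by 0.30 (15.5 to 19.2 TPM, adjusted p = 0.00856). RAB24, linked to autophagy, had a log2 change of 0.29 (8.72 to 10.9 TPM, adjusted p = 0.0168). The RAB24 call was lost when control replicate 2 or resistant replicate 3 was left out (adjusted p = 0.0586 and 0.0592). Its exons are shared with MXD3 over 44.8% of their length, so reads could be split between these genes, and MXD3 had no call (19.9 and 20.4 TPM).

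RAB20, found on endosomes and phagosomes, was the member of this group that fell. It was at 73.0, 85.0 and 81.1 TPM in control and 54.5, 56.1 and 53.5 TPM in resistant libraries, with no overlap (log2 change -0.53 ± 0.06, adjusted p = 0.00034). RAB20 lies at chr13:110523066-110561733 on the minus strand. All 263 tested genes of chromosome 13 had a median of -0.47, and the 29 protein-coding ones within 5 Mb of RAB20 one of -0.67. The RAB20 change lies between these medians, which rest on unlike sets of genes. The part of this shift in the RAB20 value was not tested.

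RABs of early and recycling endosomes were split, 3 higher and 4 lower of 14 tested, with a median log2 change of -0.05 and no member past 0.5. The share called was 50%, near the 48.6% of all genes tested. RAB5C, an early endosome RAB, rose from 59.3, 64.3 and 64.9 TPM to 83.4, 92.0 and 85.9 TPM, with no overlap (log2 change 0.46 ± 0.06, adjusted p = 0.000424). Its paralog RAB5B was at 107, 108 and 107 TPM in control and 100, 107 and 97.3 TPM in resistant libraries with no call (adjusted p = 0.173), and RAB5A was at 23.5 ± 1.38 and 24.8 ± 1.86 TPM (SD, n = 3 each; adjusted p = 0.421). RAB5C thereby went from 32.4% ± 0.895 to 40.8% ± 1.06 of the RAB5 branch. The 137 tested genes within 5 Mb of RAB5C had a median of 0.35, and the part of this in the RAB5C value was not tested. The second RAB5C row, at 0, overlaps it on the same strand.

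The RAB11 branch, which carries recycling cargo back to the surface, shifted between its members. RAB11B was at 135, 147 and 146 TPM in control and 97.9, 112 and 106 TPM in resistant libraries, with no overlap (log2 change -0.44 ± 0.06, adjusted p = 0.000871). RAB25, the epithelial member, was at 194, 207 and 206 TPM in control and 232, 222 and 224 TPM in resistant libraries, a log2 change of 0.16 ± 0.04 (adjusted p = 0.0173) that was lost without resistant replicate 3 (adjusted p = 0.0527). RAB11A, the ubiquitous member, was at 73.7 ± 6.55 and 73.1 ± 1.35 TPM (SD, n = 3 each), with overlapping groups and a log2 change of -0.01 ± 0.07. As shares of the branch, RAB11B went from 34.0% ± 0.237 to 26.0% ± 1.68 and RAB25 from 48.4% ± 0.683 to 55.9% ± 1.33. The exons of RAB11B are overlapped over 12.4% of their length by its antisense gene RAB11B-AS1 (5.87 and 4.96 TPM, no call).

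The other called members of this group moved by less. RAB15, a recycling RAB, rose by 0.23 (137 to 160 TPM, adjusted p = 0.011), and the 50 tested genes within 5 Mb had a median of 0.33. RAB31, which links the trans-Golgi network to endosomes, fell by 0.35 (37.0 to 28.8 TPM, adjusted p = 0.00241). RAB4A, of fast recycling, fell by 0.21 (61.0 to 52.4 TPM, adjusted p = 0.011), where the 64 tested genes within 5 Mb had a median of -0.22. RAB17, of epithelial transcytosis, had a log2 change of -0.23 (27.3 to 23.2 TPM, adjusted p = 0.0333). The RAB17 call was lost without control replicate 2 (adjusted p = 0.0954), control replicate 3 (0.0586), resistant replicate 1 (0.0834) or resistant replicate 2 (0.0893), and the 58 tested genes within 5 Mb had a median of -0.29. RAB14, RAB21, RAB22A and RAB35 had log2 changes between -0.09 and 0.06 with no call.

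RABs of secretory and exocytic traffic were called higher in 3 of 10 tested members and lower in 2, with a median log2 change of 0.11 and a share called of 50%, near the 48.6% of all genes tested. The number higher was 1 without control replicate 1, without control replicate 3 or with no filter on low values. Their summed TPM was 347, 383 and 362 in control and 431, 412 and 393 in resistant libraries, and RAB10 was the largest part of it. RAB10, which moves GLUT4 vesicles and basolateral cargo to the surface, was at 171, 201 and 188 TPM in control and 249, 248 and 239 TPM in resistant libraries. The groups did not overlap, and the log2 change was 0.39 ± 0.06 (adjusted p = 0.00141). Its relatives RAB8A, RAB8B and RAB13 had log2 changes of -0.02, 0.27 and 0.15 and no call.

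The RABs of regulated secretion changed in opposite directions. RAB27B, which docks secretory granules and exosome precursors, was at 16.7, 19.2 and 17.4 TPM in control and 29.9, 21.4 and 23.1 TPM in resistant libraries, with no overlap and the highest value in resistant replicate 1. Its log2 change was 0.45 ± 0.12 (adjusted p = 0.0185), and the adjusted p was 0.0593 without control replicate 1 and 0.0541 without control replicate 3. RAB27A was at 4.10 ± 0.505 and 4.30 ± 0.249 TPM (SD, n = 3 each) with no call. RAB3D, of zymogen and other exocrine granules, was at 63.7, 61.5 and 61.1 TPM in control and 54.0, 48.5 and 43.8 TPM in resistant libraries, with no overlap (log2 change -0.35 ± 0.07, adjusted p = 0.00635).

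RAB26, also of secretory granules, fell from 34.1, 35.4 and 33.5 TPM to 25.6, 26.4 and 22.1 TPM, with no overlap (log2 change -0.46 ± 0.07, adjusted p = 0.00144). RAB3A, of synaptic vesicles, was at 6.72, 7.27 and 5.71 TPM in control and 8.42, 9.15 and 7.49 TPM in resistant libraries, a log2 change of 0.31 ± 0.11 with an adjusted p of 0.0476. The RAB3A call was lost without control replicate 1 (adjusted p = 0.0758), control replicate 3 (0.151), resistant replicate 1 (0.0937) or resistant replicate 2 (0.143). Its exons overlap the antisense gene MPV17L2 over 9.08% of their length, and MPV17L2 was called higher (31.7 to 36.4 TPM, adjusted p = 0.0295). In the RAB3 branch, RAB3D went from 87.5% ± 0.906 to 82.2% ± 1.05 and RAB3A from 9.25% ± 0.996 to 14.1% ± 1.17 of the summed TPM.

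Of the 6 tested members outside these groups, 1 was called (16.7%, against 48.6% of all genes tested). RAB40B, which joins a ubiquitin ligase through a SOCS box, was at 4.97, 5.77 and 5.50 TPM in control and 3.79, 3.66 and 4.05 TPM in resistant libraries, with no overlap (log2 change -0.41 ± 0.09, adjusted p = 0.00826). RAB28, a ciliary RAB, was at 9.71, 10.1 and 10.3 TPM in control and 12.6, 12.9 and 10.5 TPM in resistant libraries. Its adjusted p was 0.0663, and it was 0.017 without resistant replicate 3. RAB19, RAB23, RAB40C and RAB42 had no call.

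The promoters of the RABs were compared by sequence with the promoters of protein-coding genes. Members were pooled whatever their direction of change, and a link between motifs and direction was not tested. Of the 62 protein-coding members, 48 had an entry among the RefSeq promoters of GRCh38.p14, each read as the 250 bases before the RefSeq start. The GC box GGGCGG, sought on both strands, stood in 38 of the 48 (79.2%), against 56.0% of the 15843 promoters of protein-coding genes of the same length. The E-box CACGTG was in 10.4% against 7.84%, the CCAAT box CCAAT in 27.1% against 34.5%, and the AP-1 site TGANTCA in 4.17% against 5.04%. The cyclic AMP element TGACGTCA was in 2.08% against 2.32%, the core of the interferon-stimulated response element in 2.08% against 2.72%, and the TATA box TATAAA in 4.17% against 9.23%. These motifs do not contain each other, a match is a description of the letters, and no test was made of it.

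The promoters of RAB6B and RAB6A, which moved apart, and of RAB32 and RAB7L1, which moved together, are shown 5′ to 3′ on the strand of the gene, with GC boxes in capitals on whichever strand they stand. They are chr3:133895883-133896132 (minus strand), chr11:73761075-73761324 (minus), chr6:146543583-146543832 (plus) and chr1:205775483-205775732 (minus) of GRCh38.p14:
RAB6B: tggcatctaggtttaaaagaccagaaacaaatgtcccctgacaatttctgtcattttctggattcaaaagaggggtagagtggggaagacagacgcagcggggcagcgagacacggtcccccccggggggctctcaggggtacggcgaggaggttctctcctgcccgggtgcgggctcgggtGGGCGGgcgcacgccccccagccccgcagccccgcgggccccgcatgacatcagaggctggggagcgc
RAB6A: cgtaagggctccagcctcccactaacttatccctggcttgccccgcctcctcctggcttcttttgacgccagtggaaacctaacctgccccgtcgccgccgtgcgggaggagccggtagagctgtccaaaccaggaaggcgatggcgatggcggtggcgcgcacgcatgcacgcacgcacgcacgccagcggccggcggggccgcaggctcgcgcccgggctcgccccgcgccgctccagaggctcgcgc
RAB32: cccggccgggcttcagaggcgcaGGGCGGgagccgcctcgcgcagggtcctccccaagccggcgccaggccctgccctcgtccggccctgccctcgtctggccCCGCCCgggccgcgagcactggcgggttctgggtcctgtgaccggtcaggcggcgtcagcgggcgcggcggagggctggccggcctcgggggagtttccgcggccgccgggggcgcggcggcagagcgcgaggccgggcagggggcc
RAB7L1: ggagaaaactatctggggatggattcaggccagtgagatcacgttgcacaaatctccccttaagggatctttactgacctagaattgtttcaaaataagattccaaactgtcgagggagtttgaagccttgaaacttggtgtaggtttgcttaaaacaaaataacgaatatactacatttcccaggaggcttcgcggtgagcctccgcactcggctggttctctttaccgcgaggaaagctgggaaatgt

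The 4 windows differ in composition. G and C made up 65.2% of the RAB6B window, 71.6% of that of RAB6A, 82.0% of that of RAB32 and 45.2% of that of RAB7L1. RAB32 held 2 GC boxes and RAB6B 1, and none of the searched motifs was in the windows of RAB6A and RAB7L1. RAB38 is named only, as it had no entry.

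Regulators and effectors of the RAB cycle were called about as often as other genes. Over all lists of regulators and effectors, 149 genes were tested, 24 were called higher and 51 lower, which is 50.3% against the 48.6% of all genes tested, with a median log2 change of -0.06. By direction this was 16.1% higher and 34.2% lower, where all genes tested had 24.0% and 24.7%, and no test was made of that difference. Of 8 tested genes for prenylation and membrane recycling, none was called higher and 4 were lower (median -0.18), and the 50% called is near the background of 48.6%. RABGGTB, the catalytic subunit of the transferase that attaches the lipid anchor, was at 34.0, 39.1 and 37.7 TPM in control and 21.3, 19.1 and 19.3 TPM in resistant libraries, a clear gap (log2 change -0.86 ± 0.07, adjusted p = 6.65e-05). Its partner subunit RABGGTA was at 39.3 ± 1.68 and 40.2 ± 0.532 TPM (SD, n = 3 each) with no call.

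CHM, the escort protein that presents RABs to this transferase, fell from 7.04 to 3.63 TPM (adjusted p = 0.00291), and its paralog CHML had no call (31.6 and 28.5 TPM). GDI2, which extracts inactive RABs from membranes, fell from 176 to 152 TPM (adjusted p = 0.015). The GDI2 call was lost without resistant replicate 3 (adjusted p = 0.0581). CHM lies on the X chromosome, whose tested genes had a median log2 change of -0.28, and the part of this in its value was not tested.

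Of 39 tested exchange factors, 8 were higher and 15 lower (median log2 change -0.05; 59.0% called against 48.6% of all genes tested). RAB3IL1, an exchange factor for RAB8 and RAB3A, rose from 2.80 to 5.80 TPM (log2 change 0.84, adjusted p = 0.000867). DENND3, which activates RAB12, rose from 4.74 to 7.68 TPM (0.60, adjusted p = 0.00189), and RIN1, which activates RAB5, from 13.5 to 20.2 TPM (0.56, adjusted p = 0.000909). CCZ1B, part of the exchange factor of RAB7, was called lower (10.1 to 4.20 TPM), but it is nearly identical to CCZ1 (12.3 and 14.2 TPM, no call), so both values are uncertain. CCZ1B lies on chromosome 7, whose tested genes had a median of -0.29, and the part of this in its value was not tested. HPS1 and HPS4, chosen here after their values were seen because together they activate RAB32 and RAB38, went from 35.6 to 28.5 TPM and from 7.77 to 9.44 TPM, in opposite directions and both called.

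Of 32 tested GTPase-activating proteins, 4 were higher and 11 lower (median log2 change 0.01). The 46.9% called is near the 48.6% of all genes tested, and limma-voom on rebuilt reads called 8 higher and 11 lower. GRTP1 fell from 41.1 to 20.5 TPM (log2 change -0.97, adjusted p = 1.13e-05) and TBC1D4, which restrains RAB10 on GLUT4 vesicles, from 17.7 to 8.72 TPM (-0.94, adjusted p = 6.61e-05). These genes lie on chromosome 13, whose tested genes had a median of -0.47, and the part of this in their values was not tested. TBC1D2, which acts on RAB7, rose from 33.7 to 56.9 TPM (0.74, adjusted p = 2.79e-05), and TBC1D9 fell from 16.3 to 9.78 TPM (-0.68, adjusted p = 0.000229).

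**Figure D4:**
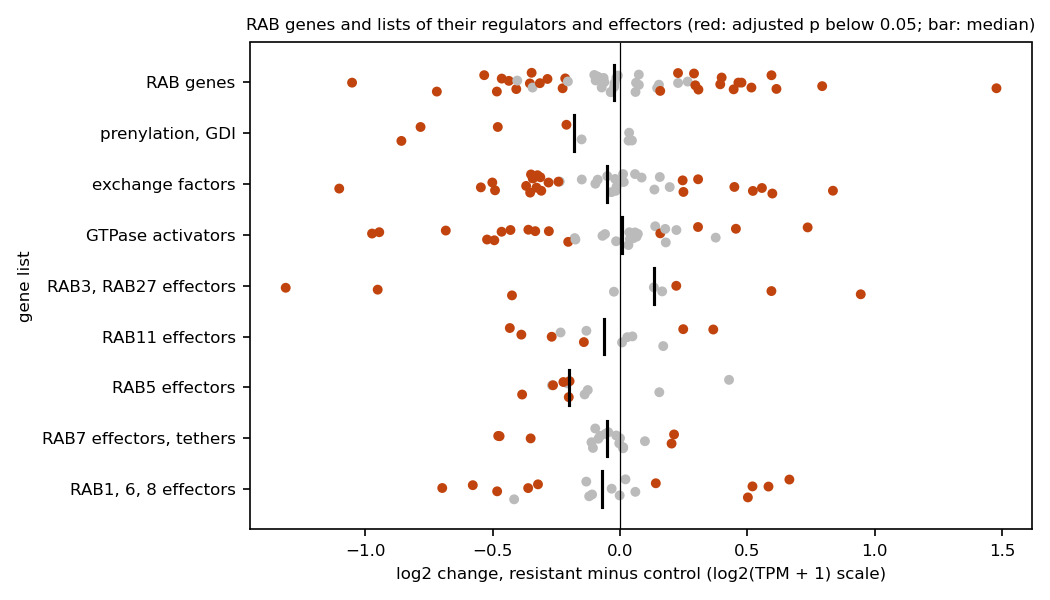
The log2 change (x axis, resistant minus control, log2(TPM + 1) scale) of each tested gene in the RAB family and in 8 lists of regulators and effectors (y axis), in red where the adjusted p was below 0.05, with a bar at each median. The points spread to both sides of 0 in every list, and the lowest point is SYTL2 at -1.31.

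Among the effectors, those of RAB3 and RAB27 held the widest changes, with 3 higher and 3 lower of 9 tested (median 0.13; 66.7% called against 48.6% of all genes tested). The 4 with the largest changes were synaptotagmin-like proteins, which tether granules to the plasma membrane. The other called ones were MLPH, which links RAB27A to a myosin motor (97.4 to 72.3 TPM, adjusted p = 0.000665), and UNC13D, a granule priming factor (32.4 to 37.9 TPM, adjusted p = 0.0113). MLPH lies within 5 Mb of RAB17, whose neighbours had a median of -0.29. The part of this in the MLPH value was not tested. SYTL2 was at 19.6, 24.4 and 23.2 TPM in control and 9.84, 7.83 and 7.67 TPM in resistant libraries, with a wide gap (log2 change -1.31 ± 0.11, adjusted p = 9.21e-05). SYTL4, on the X chromosome, also fell (9.31 to 4.34 TPM, adjusted p = 0.000169). Tested genes of that chromosome had a median of -0.28, and the part of this in the SYTL4 value was not tested. In the other direction, SYTL3 was at 3.588, 3.384 and 3.925 TPM in control and 7.47, 8.13 and 8.14 TPM in resistant libraries (log2 change 0.95 ± 0.09, adjusted p = 0.000118), and SYTL1 rose from 15.8 to 24.3 TPM (adjusted p = 0.000615). SYTL5 was listed at 0 in all libraries.

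Effectors of RAB1, RAB6 and RAB8 were split, 5 higher and 5 lower of 18 tested (median -0.07; 55.6% called against 48.6% of all genes tested). BICD1, which couples RAB6 vesicles to dynein, fell from 11.8 to 6.88 TPM (log2 change -0.70, adjusted p = 0.00085), and the golgin GCC1 from 22.3 to 14.6 TPM (-0.58, adjusted p = 9.74e-05). GCC1 lies on chromosome 7, whose tested genes had a median of -0.29, and the part of this in its value was not tested. MICALL1, a RAB8 effector on recycling tubules, rose from 67.3 to 107 TPM (0.66, adjusted p = 7.96e-05), and OPTN, which binds RAB8, from 10.9 to 16.7 TPM (0.58, adjusted p = 0.00623).

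For RAB5, no effector was called higher and 5 of 11 were lower (median -0.20), and the 45.5% called is near the 48.6% of all genes tested. The number higher was 2 under limma-voom on rebuilt reads and 1 with a filter at 5 TPM or median-ratio scaling. APPL2 fell from 22.3 to 16.9 TPM (adjusted p = 0.00223) and RABEP2 from 35.3 to 29.3 TPM (adjusted p = 0.00468). The number called lower was 3 without control replicate 2 and 2 without control replicate 3 or resistant replicate 3, and 1 effector was called higher without control replicate 2 or resistant replicate 2. PIK3R4, a regulatory subunit of the endosomal PI3-kinase, was called lower (32.6 to 27.8 TPM), with adjusted p-values of 0.0982, 0.124, 0.102 and 0.119 without control replicate 2, control replicate 3, resistant replicate 2 and resistant replicate 3. RUFY1 was called lower too (32.9 to 28.5 TPM), with 0.0618, 0.0645, 0.0522 and 0.0646 without control replicate 2, control replicate 3, resistant replicate 1 and resistant replicate 3. PIK3R4 lies within 5 Mb of RAB43, whose neighbours had a median of -0.21. The part of this in the PIK3R4 value was not tested.

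For RAB11, 2 effectors were higher and 4 lower of 12 (median -0.06), and the 50% called is near the 48.6% of all genes tested. ZFYVE27 fell from 43.5 to 33.0 TPM (adjusted p = 0.000879), and RAB11FIP5 rose from 27.7 to 36.0 TPM (adjusted p = 0.000738). EXOC6, a subunit of the exocyst tether, was called lower (15.9 to 11.5 TPM), with adjusted p-values of 0.0575, 0.0653, 0.0673 and 0.0675 without control replicate 2, control replicate 3, resistant replicate 2 and resistant replicate 3. MYO5C, a myosin motor, was called lower (11.1 to 9.12 TPM), with 0.0677 to 0.134 when any library but resistant replicate 1 was left out. The number called lower was 2 without control replicate 1 and 1 without control replicate 2, control replicate 3, resistant replicate 2 or resistant replicate 3.

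For RAB7 and its tethers, 2 were higher and 3 lower of 18 (median -0.05), 27.8% called against 48.6% of all genes tested. RILP, which couples RAB7 to dynein, fell from 18.6 to 13.2 TPM (adjusted p = 0.00312), and the retromer subunit VPS26A from 63.1 to 45.1 TPM (adjusted p = 0.00331). PLEKHM1 was called higher (20.2 to 23.5 TPM), and lost the call without resistant replicate 2 or 3 (adjusted p = 0.061 and 0.0684). It lies within 5 Mb of RAB5C, whose neighbours had a median of 0.35, and the part of this in its value was not tested. The number higher was 1 without any of control replicates 1, 2 and 3 or resistant replicate 1, and 0 without resistant replicate 2 or 3. VPS33A, a HOPS tether subunit, was called lower (5.51 to 4.12 TPM), with adjusted p-values of 0.0654 without control replicate 3 and 0.0654 without resistant replicate 3. PPM1H, the phosphatase that removes the LRRK2 mark from RABs, fell from 16.4 ± 0.110 to 12.6 ± 0.411 TPM (SD, n = 3 each; log2 change -0.36, adjusted p = 0.00134).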

How the data were processed

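Poly(A) RNA of 3 control and 3 resistant libraries was analysed. The authors deposited 1 table of TPM, and each column summed to 1000000. Per the submitters' processing notes HISAT2 was used; not given in the sources used here are its version, the counter, the strand setting, the build and the annotation. Coordinates and exon lengths are from GENCODE 29 (GRCh38, 1-based), which holds all 51537 identifiers. TPM keeps no depth, so reads were rebuilt from TPM and exon length; 67.2% to 67.9% of values were whole within 0.01 read, so the totals are estimates. Antisense and overlapping genes may share reads.

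The members and lists were chosen with earlier results of these data known. Group differences in log2(TPM + 1) were tested with limma 3.58.1 (R 4.3.3, trend and robust moderation, statmod 1.5.0) in the 16077 genes that reached 1 TPM in 3 or more libraries, two-sided, with Benjamini-Hochberg adjustment and a threshold of 0.05. The script was tested on simulated data. The log2(TPM + 1) scale understates changes of low genes. Each change is resistant minus control with its standard error.

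Named members were the called ones with an absolute log2 change of at least 0.5 and at least 5 TPM in the higher group, the 5 most abundant, close paralogs of these, and other called members within their role list. For each list of regulators, up to 4 called genes with at least 5 TPM in the higher group were named, the largest changes leading. A gene that this rule would name is not reported here. RAB41 and uncalled relatives were named with their branch. Alternatives were another pseudocount, other filters, median-ratio scaling, limma without trend and robust moderation, limma-voom on rebuilt reads, a replicate block and leaving out each library.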

Additional observations from a re-analysis of the deposited data

How the results depend on the processing

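Of the 28 calls among RAB members, 21 held under every one of the 13 alternative fits that tested the gene, 7 were lost under at least 1 and no called member changed direction. The counts of members called higher and lower were 15 and 13 with a pseudocount of 0.1 TPM, 15 and 11 with a filter at 5 TPM, 13 and 11 with no filter on low values, 16 and 14 with median-ratio scaling, 17 and 13 with limma-voom on rebuilt reads and 13 and 11 without trend and robust moderation. Over all genes they were 3852 and 3963 in the main fit, 3822 and 3936 with that pseudocount and 3017 and 3552 with that filter. With no filter on low values they were 3714 and 3548, and with median-ratio scaling 3978 and 4325. Limma-voom gave 4720 and 4021 over all genes, and the fit without trend and robust moderation 3762 and 3780. Leaving out 1 library gave 13 to 14 members higher and 9 to 13 lower, and a difference in summed TPM from -19.8 to 86.0. Over all genes, leaving out 1 library gave 3001 to 3624 higher and 3001 to 3923 lower. Protein-coding members outside chromosomes 7, 13, 21 and X, a choice made after seeing the data, gave 14 higher and 10 lower. Same-numbered libraries did not deviate together (r of -0.0583, -0.0017 and -0.0163). With 3 libraries per group this check cannot settle whether the numbers pair them, and the labels do not say. A replicate block gave 15 higher and 12 lower, 3433 and 3423 over all genes, and 60 called regulators and effectors against 75. Directions turned only for uncalled members. Under limma-voom the log2 changes were 0.030 for RAB11A, 0.016 for RAB14, 0.0025 for RAB1B, 0.00028 for RAB2A, 0.024 for RAB2B and 0.012 for RAB8A. Leaving out 1 library gave ranges of -0.067 to 0.058 for RAB11A, -0.0697 to 0.019 for RAB14, -0.016 to 0.13 for RAB27A, -0.0835 to 0.0012 for RAB2A, -0.078 to 0.041 for RAB2B, -0.051 to 0.21 for RAB42 and -0.071 to 0.0079 for RAB8A. Without control replicate 2, RAB2B was at 0.024. The cause was not tested. Depth limits the lowest members most, since RAB41 and RAB33A rest on 5 to 30 and 7 to 30 estimated reads per library.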
